A study of Homo sapiens with 12 samples.

Results

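The accessible regions around 7 genes of the YAP-TEAD pathway were examined by ATAC-seq, in which a transposase places sequencing adapters into open DNA. The genes were YAP1, WWTR1, TEAD1, LATS2, CCN1, CCN2 and ANKRD1. A locus was the gene interval in the hg19 build (GRCh37) with 25 kb to each side, and its members were the peaks of any library that overlapped it. Overlapping peaks of the 12 libraries were merged into regions. The 7 loci held 670 of 742200 peaks and 171 of 187088 regions: 56 at TEAD1, 37 at WWTR1, 33 at LATS2, 18 at YAP1, 10 at CCN1, 9 at CCN2 and 8 at ANKRD1.

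All libraries came from G401, an established rhabdoid tumour cell line with the genotype SMARCB1(-/-), so that the controls lack SMARCB1 too. SMARCB1 is a core subunit of the canonical forms of the SWI/SNF chromatin remodelling complex. Doxycycline was given for 24 h in every group and induced either GFP, the control, or SMARCB1. Each induction was combined with the vehicle DMSO or with dBRD9-A, which targets for degradation BRD9, found in the non-canonical form of SWI/SNF. The 4 groups were GFP DMSO, GFP dBRD9-A, SMARCB1 DMSO and SMARCB1 dBRD9-A, each with 3 libraries numbered 1 to 3. The labels do not say whether the 3 came from separate cultures, so the p-values measure only the spread between these libraries. The identity of the cells, the induction of SMARCB1 and the loss of BRD9 were not tested here, since peak lists hold neither RNA nor protein.

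YAP1 and its paralogue TAZ, the product of WWTR1, are transcriptional coactivators that have no DNA-binding domain and reach DNA through TEAD factors such as TEAD1. The Hippo kinases LATS1 and LATS2 phosphorylate both coactivators and so keep them out of the nucleus. CCN1, CCN2 and ANKRD1 are among the genes most often read as targets: CCN1 and CCN2 encode secreted matricellular proteins, and ANKRD1 an ankyrin repeat protein of muscle and stressed cells. LATS2 is itself a target, which closes a negative feedback loop. TEAD factors recognise the core GGAATG, often at enhancers that also hold an AP-1 motif, searched here as the loose pattern TGANTCA with N as any base.

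The sequence before the start of 2 of the target genes is shown because ANKRD1 had a peak at its start mainly in SMARCB1 libraries, while CCN2 had one in all 12 libraries. Each is the 250 bases before the gene start, 5′ to 3′ on the gene's strand, from RefSeq on GRCh38.p14, with matches to GGAATG or TGANTCA on either strand in capitals.
ANKRD1, chr10:90921088-90921337, minus strand: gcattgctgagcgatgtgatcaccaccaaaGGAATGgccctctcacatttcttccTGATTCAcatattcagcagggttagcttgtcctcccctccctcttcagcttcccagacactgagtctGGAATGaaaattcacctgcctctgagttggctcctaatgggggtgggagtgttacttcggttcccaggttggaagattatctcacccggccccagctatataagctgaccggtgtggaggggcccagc
CCN2, chr6:131951373-131951622, minus strand: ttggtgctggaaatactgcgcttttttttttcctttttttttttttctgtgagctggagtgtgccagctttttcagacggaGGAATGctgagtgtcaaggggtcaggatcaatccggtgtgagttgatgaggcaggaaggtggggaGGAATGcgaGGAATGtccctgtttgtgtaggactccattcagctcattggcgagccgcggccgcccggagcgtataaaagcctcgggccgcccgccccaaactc
The ANKRD1 window held 2 matches to GGAATG, from 220 to 215 and from 128 to 123 bases before the start. It also held 1 match to TGANTCA, from 195 to 189 bases before the start, with T as the middle base, a match to the loose pattern only. None of the 3 overlapped another. The CCN2 window held 3 matches to GGAATG, from 169 to 164, from 104 to 99 and from 95 to 90 bases before the start, and none to TGANTCA. Of all 35116 promoter windows of this length, 11.9% held GGAATG at least once, 0.940% at least 2 times and 0.0826% at least 3 times, and 6.57% held TGANTCA. YAP1 had 1 match to GGAATG, and LATS2 and both entries of WWTR1 had none to either motif. The table used had promoters for 5 of the 7 genes, without TEAD1 and CCN1. A match describes letters in the window and not binding, and whether AP-1 recognises TGATTCA was not examined.

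The 7 loci together held more peaks in SMARCB1 than in GFP libraries: 85.7 ± 11.5 (SD, n = 6) against 26 ± 4.34 (SD, n = 6). The counts ran from 78 to 108 with SMARCB1 and from 22 to 32 with GFP and did not overlap. Whole lists did not overlap either, with 71169 to 96572 peaks for SMARCB1 and 33428 to 50089 for GFP. They were longer with SMARCB1 by a ratio of means of 2.18, against 3.29 in the loci. The loci therefore took 0.101% ± 0.00877 (SD, n = 6) of a SMARCB1 list and 0.0669% ± 0.00248 (SD, n = 6) of a GFP list, again without overlap (0.0895% to 0.112% and 0.0639% to 0.0709%). How often other sets of loci separate in this way was not examined. Depth moved with the induction on 1 of 2 measures. The lowest background pileup of a list averaged 0.0827 fragments with SMARCB1 (0.0487 to 0.111) and 0.0517 with GFP (0.0383 to 0.0784). At the regions shared by all 12 libraries, the geometric mean of the summit heights overlapped between inductions, from 12.9 to 20.5 fragments with SMARCB1 and from 12.8 to 23.2 with GFP. A shallow library misses weak peaks, so the lack of a peak does not show closed chromatin.

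Among the coactivator genes, the YAP1 locus had 9, 8 and 7 peaks in the SMARCB1 DMSO libraries 1 to 3 and 8, 7 and 13 with dBRD9-A. With GFP it had 4, 2 and 3 in DMSO and 2 in each dBRD9-A library. The groups by induction did not overlap, with 8.67 ± 2.25 (SD, n = 6) against 2.50 ± 0.837 (SD, n = 6) peaks (two-sided exact permutation test within treatments, p = 0.00500, the smallest that its 400 arrangements allow). Beside this, SMARCB1 libraries all exceeded GFP libraries in 35.6% of genome windows of the same length that held any peak. Peaks covered 1.24 ± 0.330 kb (SD, n = 6) of the locus with SMARCB1 and 0.382 ± 0.166 kb (SD, n = 6) with GFP.

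At the start of YAP1 a peak was found in 11 of the 12 libraries (chr11:101980957-101981275), with summits of 6 to 14 fragments in GFP and 7 to 13 in SMARCB1 libraries. The library without it was SMARCB1 dBRD9-A 2, the shallowest of the SMARCB1 libraries. A second, narrow region 0.5 kb upstream had a peak in only 2 libraries. The peaks found in 6 of 6 SMARCB1 and 0 of 6 GFP libraries lay elsewhere. The region 5.3 kb into the gene (chr11:101986380-101986607) reached 8, 9 and 13 fragments in SMARCB1 DMSO and 18, 8 and 7 in SMARCB1 dBRD9-A. Beyond the gene's end, 146.0 kb past its start, another (chr11:102127090-102127288) reached 7, 18 and 13 and then 6, 10 and 8. Weaker ones lay 58.2 kb and 34.7 kb into the gene, with summits of 4 to 6 and 2 to 7 fragments.

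The WWTR1 locus had 19, 19 and 22 peaks in SMARCB1 DMSO and 18, 15 and 21 in SMARCB1 dBRD9-A libraries. In GFP libraries it had 5, 4 and 3 in DMSO and 4, 3 and 6 with dBRD9-A. The means, 19.0 ± 2.45 (SD, n = 6) and 4.17 ± 1.17 (SD, n = 6), had a ratio of 4.56, the highest of the 7 loci (same exact permutation test, p = 0.00500). In 37.2% of windows of its length the SMARCB1 libraries also all exceeded the GFP libraries. TM4SF4 and COMMD2 are protein-coding neighbours of WWTR1 in the RefSeq gene order. Whether the locus window reaches either of them was not examined here, and peaks of the locus need not belong to WWTR1.

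The start of WWTR1 was open in all 12 libraries (chr3:149375704-149376105), with 14 to 28 fragments in GFP and 15 to 31 in SMARCB1 libraries. Of the regions found in 6 of 6 SMARCB1 and 0 of 6 GFP libraries, the one with the highest fold over background within its lists lay inside the gene, 95.1 kb from its start (chr3:149280554-149280905), with 20, 14 and 11 fragments in DMSO and 20, 14 and 8 with dBRD9-A. Those at 129.5 kb (chr3:149246148-149246425) and, past the gene's end, at 151.4 kb (chr3:149224281-149224606) had summits of 8 to 16 and 8 to 20 fragments. None of these 3 had a peak in any GFP library.

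TEAD1, the DNA-binding partner, is the longest of the genes and had the most peaks. Counts were 24, 27 and 34 in SMARCB1 DMSO, 24, 30 and 38 in SMARCB1 dBRD9-A, 8, 6 and 7 in GFP DMSO and 6, 5 and 8 in GFP dBRD9-A. The inductions did not overlap, at 29.5 ± 5.65 (SD, n = 6) against 6.67 ± 1.21 (SD, n = 6) peaks (exact permutation test, p = 0.00500), which was true of 45.8% of windows of the same length. Covered length was 4.84 ± 1.04 kb (SD, n = 6) against 1.10 ± 0.175 kb (SD, n = 6).

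The start of TEAD1 had a peak in every library (chr11:12695629-12696125), of 14 to 35 fragments with GFP and 17 to 23 with SMARCB1. By contrast, a region 2.8 kb upstream (chr11:12692998-12693322) had 22, 23 and 26 fragments in SMARCB1 DMSO, 19, 17 and 21 in SMARCB1 dBRD9-A and no peak with GFP. It is a merged region of peaks that differ in extent, and only 2 SMARCB1 libraries covered at least 50% of it. Within the gene, the region at 72.3 kb (chr11:12768188-12768415) had a mean fold percentile of 91.5, the highest in the 7 loci among regions found in 6 of 6 SMARCB1 and 0 of 6 GFP libraries, where the percentile ranks a peak's fold over background within its own list. Its summits were 22, 24 and 19 fragments in DMSO and 31, 17 and 20 with dBRD9-A. The region at 95.8 kb (chr11:12791659-12791849) followed with 10 to 21 fragments in the SMARCB1 libraries and no peak with GFP.

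**Figure D1:**
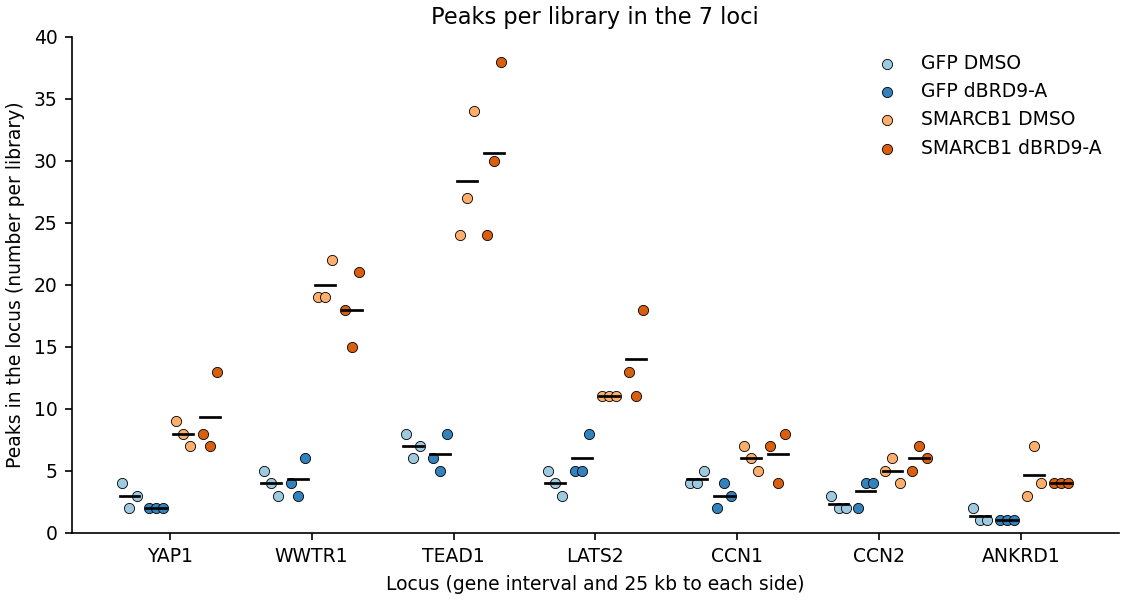
The number of peaks in each library (points; bars are group means, n = 3) is plotted for the 7 loci, by induction and treatment. SMARCB1 libraries lie above all GFP libraries at YAP1, WWTR1, TEAD1, LATS2 and ANKRD1. The ranges overlap at CCN1 (4 to 8 against 2 to 5) and CCN2 (4 to 7 against 2 to 4).

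LATS2, the kinase gene, had 11 peaks in each SMARCB1 DMSO library and 13, 11 and 18 in SMARCB1 dBRD9-A. GFP libraries had 5, 4 and 3 in DMSO and 5, 5 and 8 with dBRD9-A. The means were 12.5 ± 2.81 (SD, n = 6) and 5.0 ± 1.67 (SD, n = 6), without overlap (exact permutation test, p = 0.00500; true of 32.5% of windows of this length). A peak in a single library made up 17 of its 33 regions, against 12 of 37 at WWTR1. Over the 7 loci these were 57 of 171, and over the genome 76709 of 187088 regions. Peaks in any number of SMARCB1 libraries and no GFP library made up 19 of its regions, and the reverse 8. Over the 7 loci these counts were 116 (67.8%) and 16 (9.36%) of 171, beside 62.3% and 11.5% of all regions.

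The start of LATS2 (chr13:21635618-21635993) had 18 to 42 fragments with GFP and 17 to 39 with SMARCB1. A region 6.4 kb upstream (chr13:21641922-21642358) had a peak in all 12 libraries as well, but its heights differed. Its summits were 12, 6 and 8 fragments in GFP DMSO, 4, 5 and 12 in GFP dBRD9-A, 18, 27 and 34 in SMARCB1 DMSO and 21, 11 and 24 in SMARCB1 dBRD9-A. As listed, these heights overlapped between the inductions at SMARCB1 dBRD9-A 2, with 11 fragments, the shallowest of the SMARCB1 libraries. The 2 regions found in 6 of 6 SMARCB1 and 0 of 6 GFP libraries lay 13.5 kb into the gene (chr13:21622170-21622368), with 3 to 10 fragments, and 18.3 kb upstream (chr13:21653924-21654186), with 5 to 14.

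The 3 target genes are short, and their loci differed from each other in where SMARCB1 libraries had additional peaks. The ANKRD1 locus had 3, 7 and 4 peaks in SMARCB1 DMSO and 4 in each SMARCB1 dBRD9-A library, against 2, 1 and 1 in GFP DMSO and 1 in each GFP dBRD9-A library. The means, 4.33 ± 1.37 (SD, n = 6) and 1.17 ± 0.408 (SD, n = 6), came without overlap (exact permutation test, p = 0.00500; true of 21.7% of windows of this length). Covered length was 1.28 ± 0.212 kb (SD, n = 6) with SMARCB1 and 0.111 ± 0.0360 kb (SD, n = 6) with GFP.

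ANKRD1 was the only one of the 7 genes with no peak at its start in most GFP libraries. The region there (chr10:92680843-92681310) had 28, 24 and 29 fragments in SMARCB1 DMSO and 34, 12 and 32 in SMARCB1 dBRD9-A. Of the GFP libraries only GFP DMSO 1 had a peak, of 2 fragments. In the test of presence over all regions this gave an unadjusted exact permutation p = 0.0200, and did not pass (Benjamini-Hochberg adjusted p = 0.0757). The result turns on this peak of GFP DMSO 1. Leaving that library out gave an adjusted permutation p = 0.0306, but it is the only GFP library with a peak there, so its removal fixes that outcome. With all 12 libraries, 2 settings dropped the peak and gave a call. The adjusted permutation p was 0.0330 when only peaks whose −log10 q reached 5 were counted. It was 0.0347 with libraries thinned to equal pileup at shared regions. At equal background depth and at 50% cover no region was called. Further upstream, 9.2 kb from the start (chr10:92690012-92690496), SMARCB1 libraries had 34, 24 and 32 fragments in DMSO and 38, 24 and 27 with dBRD9-A, and GFP libraries had no peak. At 10.1 kb upstream (chr10:92690909-92691339) the summits were 25, 18 and 21 and then 21, 11 and 18, again with no peak in GFP libraries. By RefSeq coordinates the protein-coding gene RPP30 reaches within 25 kb of ANKRD1, so peaks of this locus need not belong to ANKRD1. The region 9.5 kb past the start, just beyond the gene's end, went the other way: it had a peak of 3 to 7 fragments in 6 of 6 GFP and 2 of 6 SMARCB1 libraries (unadjusted exact permutation p = 0.0800). It lies outside the rule for naming regions and was chosen after its values were seen.

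CCN1 had 7, 6 and 5 peaks in SMARCB1 DMSO, 7, 4 and 8 in SMARCB1 dBRD9-A, 4, 4 and 5 in GFP DMSO and 2, 4 and 3 in GFP dBRD9-A. The ranges overlapped, and the means were 6.17 ± 1.47 (SD, n = 6) and 3.67 ± 1.03 (SD, n = 6) (exact permutation test, p = 0.0200; in 20.7% of windows of this length all SMARCB1 libraries exceeded all GFP libraries). The difference was 2.50 peaks, with an exact permutation p = 0.125 when labels were permuted only within pairs of the same replicate number. It fell to 0.667 at equal background depth (exact permutation p = 0.505). Without the 25 kb flanks it was -0.667 (exact permutation p = 0.230): the additional SMARCB1 peaks lay in the flanks and not in the gene.

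The CCN1 start (chr1:86046195-86046631) had the highest pileup of any GFP library at the 7 starts, 51 fragments. Its summits were 51, 32 and 28 fragments in GFP DMSO, 29, 25 and 30 in GFP dBRD9-A, 41, 36 and 32 in SMARCB1 DMSO and 34, 22 and 30 in SMARCB1 dBRD9-A, which overlap throughout. A region 26.6 kb past the start, in the downstream flank (chr1:86072783-86073320), had 50, 34 and 53 fragments in SMARCB1 DMSO and 58, 24 and 60 in SMARCB1 dBRD9-A. GFP libraries had either no peak there or peaks of 3 and 6 fragments in DMSO and of 3 with dBRD9-A. Every SMARCB1 library was thus above every GFP library with a peak, yet presence alone, 6 of 6 against 3 of 6, gave an unadjusted exact permutation p = 0.20. No GFP library covered at least 50% of the region. It too falls outside the rule for naming regions and was chosen after its values were seen. By RefSeq coordinates the protein-coding gene DDAH1 reaches within 25 kb of CCN1, so peaks in the flanks need not belong to CCN1. The side on which DDAH1 lies was not examined here. No region of the CCN1 locus was found in 6 of 6 SMARCB1 and 0 of 6 GFP libraries. Those 9.4 kb upstream and 3.6 kb past the start were found in 5 and 0, and SMARCB1 dBRD9-A 2 lacked both.

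The CCN2 locus had 5, 6 and 4 peaks in SMARCB1 DMSO, 5, 7 and 6 in SMARCB1 dBRD9-A, 3, 2 and 2 in GFP DMSO and 2, 4 and 4 in GFP dBRD9-A. The means were 5.50 ± 1.05 (SD, n = 6) and 2.83 ± 0.983 (SD, n = 6) (exact permutation test, p = 0.00500). Their difference of 2.67 peaks fell to 0.167 without the 25 kb flanks. The libraries overlapped at 4 peaks when treatments were pooled, and in 20.7% of windows of this length all SMARCB1 libraries exceeded all GFP libraries. Its start, whose upstream sequence is shown above (the peak region is chr6:132272409-132272747 in hg19), had 44, 31 and 24 fragments in GFP DMSO, 20, 20 and 25 in GFP dBRD9-A, 27, 35 and 30 in SMARCB1 DMSO and 35, 23 and 35 in SMARCB1 dBRD9-A. Of the 4 regions with peaks in SMARCB1 libraries alone, 2 were found in 6 of 6, both in the flanks. The one 15.3 kb upstream (chr6:132287649-132287947) had 9, 11 and 10 fragments in DMSO and 16, 7 and 12 with dBRD9-A. The other, 13.1 kb past the start (chr6:132259248-132259498), had 9, 5 and 7 and then 10, 7 and 8.

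**Figure D2:**
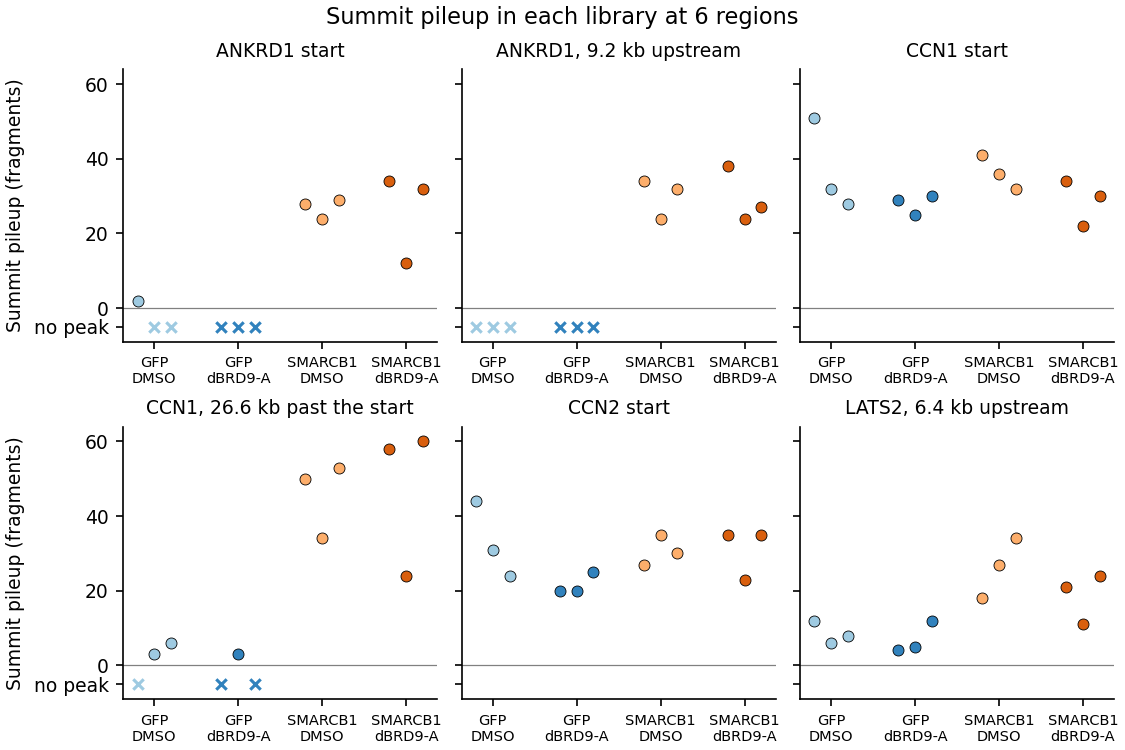
The summit pileup in fragments, as listed and not scaled for depth, is plotted for each library at 6 regions; crosses mark libraries with no peak. The starts of CCN1 and CCN2 overlap between inductions. At the ANKRD1 start and 26.6 kb past the CCN1 start every SMARCB1 library is above the few GFP peaks, which reach 2 and 6 fragments. The region past the CCN1 start was chosen after its values were seen. In the main setting neither it nor the ANKRD1 start passed the test of presence.

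Over all 7 loci, 26 regions rose in presence with SMARCB1 and none fell. The test permuted induction labels within treatments for each region with a peak in 2 to 10 libraries, with Benjamini-Hochberg adjustment over the 88398 such regions of the genome. Of the 102 member regions tested, the 26 (10 at TEAD1, 6 at WWTR1, 4 at YAP1, 2 each at LATS2, CCN2 and ANKRD1, 0 at CCN1) had 6 of 6 against 0 of 6 libraries and an adjusted p = 0.0321. The share of all tested regions that rose was 15.4%, and 0.131% fell. At an unadjusted p below 0.05, 33 member regions were higher and 0 lower, against 25.9% and 0.482% of all tested. A further 57 regions had a peak in 1 library, and 12 in 11 or 12, and could not enter this test. The adjusted p had little room. It was 0.0505 at equal background depth. There 11 member regions and 6665 of all regions had 6 against 0 libraries, beside 26 and 13634 in the main setting. The adjusted p was 0.0577 when a library had to cover 50% of the region, where 19 and 7622 regions had. With labels permuted only within pairs of the same replicate number (a replicate block) it was 0.201, and no region was called.

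Only 4 of the 12 regions within 1 kb of a gene start could enter the test, most of the others being found in 11 or 12 libraries. None of the 26 lay there, 16 lay inside a gene interval, 6 in an upstream flank and 4 in a downstream flank. Of the 10 regions found in all 12 libraries, 6 lay within 1 kb of a gene start by their nearest edge. The 26 had a median width of 257 bp and a median fold percentile of 63.2, close to 270 bp and 61.8 over all 13634 regions that rose. Whether a region inside a gene is exonic or intronic is not given, since no GRCh37 annotation was used here.

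**Figure D3:**
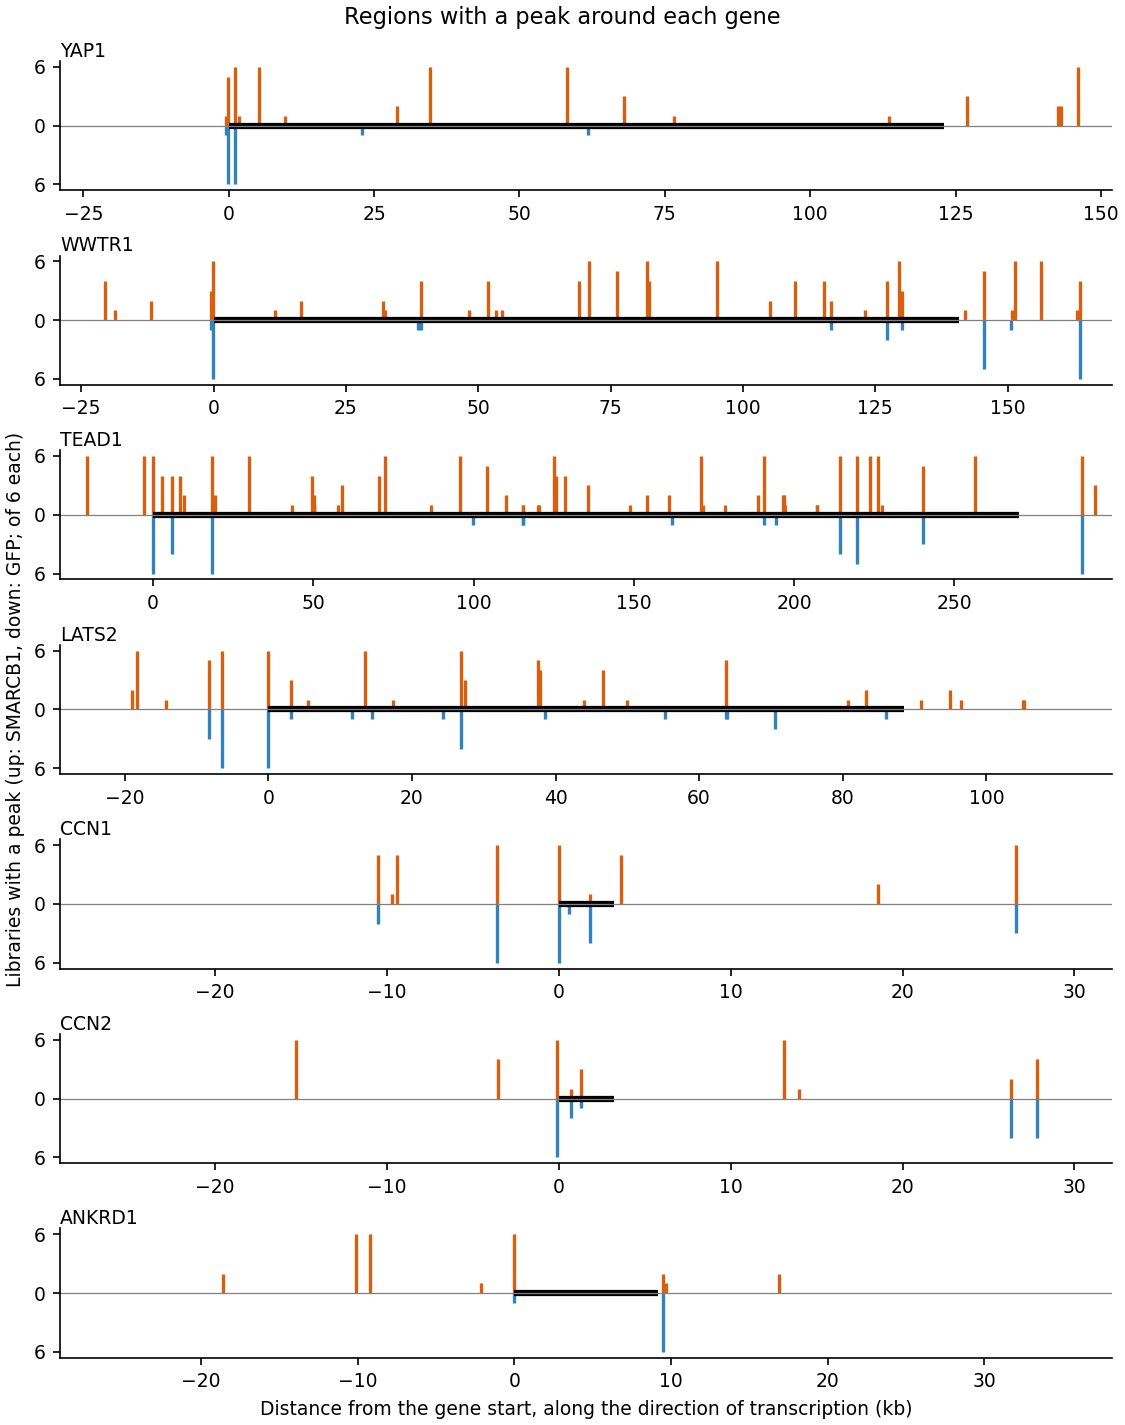
Each vertical line is a region, placed by the distance of its centre from the gene start along the direction of transcription (kb); its height is the number of libraries with a peak, SMARCB1 upward and GFP downward (6 each), and the black bar is the gene. Lines that reach 6 upward with none downward are the 26 regions that rose; at the gene starts lines go both ways, at ANKRD1 with 1 GFP library only.

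At the 10 regions found in all 12 libraries the height of the summit could be compared. Summit pileups were scaled by the median ratio over the 18114 such regions of the genome and tested on the log2 scale with limma, with Benjamini-Hochberg adjustment over all of them. Only 2 of the 10 rose with SMARCB1 and none fell, against 8.71% and 3.84% of all shared regions. LATS2 at 6.4 kb upstream rose by 1.49 ± 0.22 (log2, SE), or 2.81-fold (limma, adjusted p = 4.12e-06). TEAD1 at 18.4 kb into the gene (chr11:12714268-12714442) had 12, 6 and 12 fragments in GFP DMSO, 5, 5 and 6 in GFP dBRD9-A, 9, 16 and 29 in SMARCB1 DMSO and 13, 14 and 26 in SMARCB1 dBRD9-A. It rose by 1.14 ± 0.27 (log2, SE), or 2.20-fold (limma, adjusted p = 0.00248).

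The starts of the genes did not pass. The log2 difference was -0.05 at CCN1 (95% interval -0.34 to 0.23), 0.14 at CCN2 (-0.13 to 0.42), 0.00 at LATS2 (-0.29 to 0.29), -0.16 at TEAD1 (-0.50 to 0.19) and 0.29 at WWTR1 (-0.02 to 0.60). Just inside YAP1, 1.1 kb from its start, it was 0.41 (-0.11 to 0.92). The median was 0.18 over the 10 and -0.03 over all shared regions. These directions depend on the scale. With libraries scaled by their background pileup, the median of all shared regions moved to -0.65, and 490 of them rose and 12254 fell, against 1577 and 696. On that scale LATS2 at 6.4 kb upstream was the 1 member region that rose. A further 5 fell, namely TEAD1 at 289.8 kb and the starts of CCN1, CCN2, LATS2 and TEAD1, and at TEAD1 18.4 kb into the gene the difference was 0.52 (limma, adjusted p = 0.0913).

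**Figure D4:**
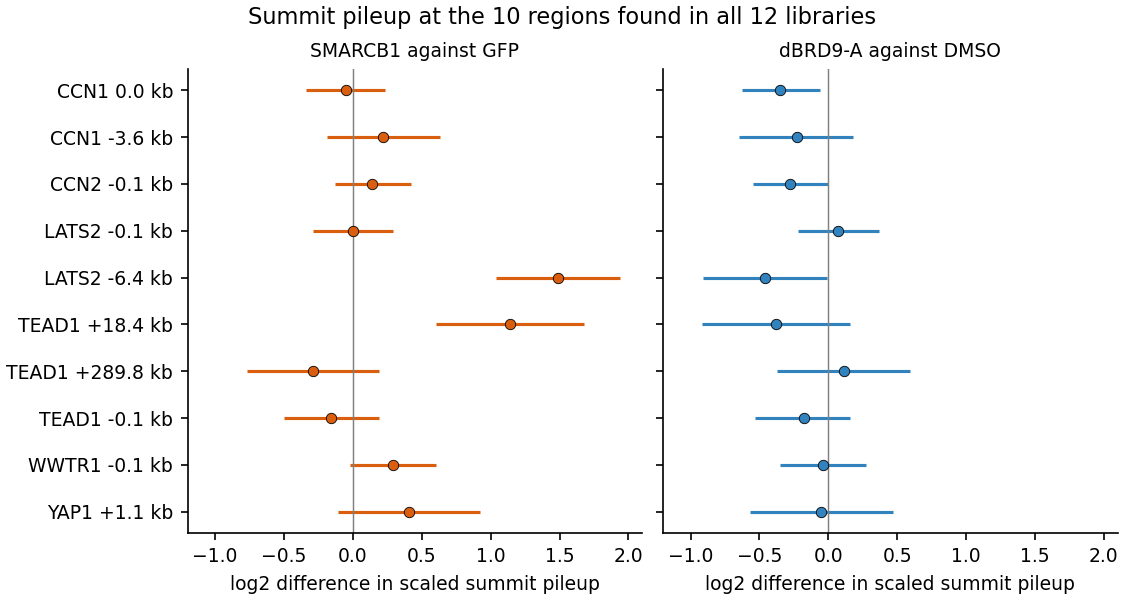
Points are the log2 difference in scaled summit pileup and lines its 95% interval (limma, 12 libraries) at the 10 regions found in every library, named by gene and distance from its start. With SMARCB1, LATS2 at -6.4 kb (1.49) and TEAD1 at +18.4 kb (1.14) stand to the right of 0; with dBRD9-A no region passed the adjusted threshold.

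SMARCB1 libraries were also compared with GFP libraries within each treatment, counting a region as gained when 3 of 3 SMARCB1 and 0 of 3 GFP libraries had a peak. No test is attached, since 3 libraries against 3 cannot give an exact p below 0.1. In DMSO 34 of the 134 member regions with a peak in these 6 libraries were gained and 0 lost, beside 15.0% and 0.429% of all 141189 such regions. With dBRD9-A 34 of 144 were gained and 0 lost, beside 13.5% and 0.385% of 146804. The lists shared 26 regions, 76.5% of each, where over all regions the overlap was 64.3% of the DMSO list and 68.6% of the dBRD9-A list. Of the 34 gained in DMSO, 30 (88.2%) had a peak in at least 2 SMARCB1 dBRD9-A libraries and 1 in none; over all regions gained in DMSO the share was 91.4%. In DMSO 1 region was lost when GFP DMSO 2 or SMARCB1 DMSO 2 was left out, and with dBRD9-A 1 when GFP dBRD9-A 1 or SMARCB1 dBRD9-A 3 was. Leaving out a library loosens the rule to 2 libraries against 3, so such counts cannot fall.

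Treatment with dBRD9-A was compared with DMSO directly. No member region passed the test of presence (exact permutation within inductions, Benjamini-Hochberg adjustment, lowest adjusted p = 1.0), and 0 of 102 had an unadjusted p below 0.05, beside 0.0475% of all tested regions for gains and 0.0170% for losses. Peaks per locus differed by -0.833 at WWTR1, 0.833 at TEAD1, 0.167 at YAP1, -0.50 at CCN1, 1.0 at CCN2 and -0.50 at ANKRD1, with exact permutation p-values from 0.155 to 1.0. At LATS2 the dBRD9-A libraries had 10 ± 5.06 (SD, n = 6) and the DMSO libraries 7.5 ± 3.89 (SD, n = 6) peaks, a difference of 2.50 (exact permutation p = 0.0600). It was 3.25 without SMARCB1 dBRD9-A 2 (exact permutation p = 0.0150), 1.17 at equal background depth (exact permutation p = 0.430) and 0.833 when only peaks whose −log10 q reached 5 were counted (exact permutation p = 0.605).

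The 1 member region lost with dBRD9-A by the 3 against 0 count was in SMARCB1 cells, 0.5 kb upstream of the WWTR1 start (chr3:149376247-149376412). It had 9 fragments in each SMARCB1 DMSO library, no peak in the SMARCB1 dBRD9-A libraries, and 8 fragments in GFP dBRD9-A 3 alone among GFP libraries. It was 1 of 155 member regions with a peak in SMARCB1 cells; of all such regions 0.269% were lost and 0.301% gained, and no member region was gained. In GFP cells 0 of 55 member regions were gained or lost, beside 0.359% and 0.320% of all with a peak there. With 1 library left out the looser rule of 2 libraries against 3 applied, so these counts could rise but not fall. In SMARCB1 cells, gains numbered 1 to 4 when any of the 6 libraries was left out, and losses 2 without SMARCB1 DMSO 3 or SMARCB1 dBRD9-A 1 and 4 without SMARCB1 dBRD9-A 3. In GFP cells, 1 was gained and 2 lost without GFP DMSO 1, and 1 gained without GFP dBRD9-A 1.

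Summit pileup at the 10 shared regions did not pass for dBRD9-A either (limma, lowest adjusted p = 0.625); 0.0110% of all shared regions rose and 0.0497% fell. The largest differences with an unadjusted p below 0.05 were at LATS2 6.4 kb upstream, -0.46 (log2, 95% interval -0.91 to -0.01; limma, adjusted p = 0.749), and at the CCN1 start, -0.35 (-0.63 to -0.06; limma, adjusted p = 0.625). The interaction of induction and treatment, the test of whether the dBRD9-A difference depended on SMARCB1, passed at 0 of the 10 regions (limma, lowest adjusted p = 0.998; 0 at an unadjusted p below 0.05). Its widest interval, at TEAD1 18.4 kb into the gene, ran from -0.21 to 1.95, and that at the CCN1 start from -0.60 to 0.53.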

How the data were processed

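ATAC-seq libraries of G401 cells were represented by 1 deposited peak list each. Per the submitters' processing notes, which give no roles or order, the tools were BWA 0.7.12-r1039, SAMtools 1.2, bedtools 2.24.0, MACS2 2.1.1.20160309, DiffBind and DESeq2, with build hg19. Per the labels, the lists hold nucleosome-free fragments. For each peak the deposited lists give an integer score (not used), the fold of the summit over background, a ratio set by the authors' caller, and −log10 p and −log10 q values from the authors' same step. The lowest −log10 q was 1.30. Read totals were not analysed here.

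Summit pileup and background were solved from each peak's fold and −log10 p, as whole fragments for 100% of peaks (tolerance 0.001). Peaks overlapping by at least 1 bp were merged. Presence and peaks per locus were tested by two-sided exact permutation (400 arrangements), each of the 7 loci as a single value with no adjustment over them. Regions in all 12 lists were tested with limma 3.58.1 (R 4.3.3), with trend, on log2 pileup without pseudocount; scale factors ran from 0.767 to 1.39. Other steps used Python 3.11.15, and the code was tested on simulated data. Genome windows of each locus length, tiled end to end, gave the background of peaks per locus.

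The 7 genes and the lists were chosen with earlier results of these data known. Named regions were all those within 1 kb of a gene start; per locus, the 3 of highest mean fold percentile among those with the smallest p; those lost by any call; those called by limma; the shared region of highest percentile; and at most 2 gained or lost with dBRD9-A. Alternatives were a −log10 q of at least 5, thinning to equal depth by 2 measures, 50% cover, other flanks, other scaling, a pseudocount of 5, a mean pileup of at least 10, replicate blocks and each library left out. Counts at other Hippo genes were planned for a GRCh37 annotation and were not run.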

Additional observations from a re-analysis of the deposited data

How the results depend on the processing

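Of 301 values recomputed under settings other than leaving out a library, 211 were kept, as were 722 of 754 with 1 library left out. A tested difference was kept if its direction and side of the threshold stayed the same. A count was kept if it stayed within a factor of 1.5. The rest are given here or summed up. The cause of each change was not tested. The count of regions that rose with SMARCB1 fell from 26 to 0 at equal background depth, at 50% cover (lowest adjusted permutation p-values 0.0505 and 0.0577) and with a replicate block (0.201, since the smallest unadjusted p that its fewer arrangements allow is 0.0312). It ran from 26 to 30 with 1 library left out. The 26 stay fully separated by induction whichever library is left out, so this count could hardly fall. Replicate numbers were not taken as pairing over the 4 groups: deviations of same-numbered libraries correlated at 0.0482 to 0.227, over 0.1 in 10 of 18 pairs, and those of other numbers at -0.171 to 0.0165. Between GFP dBRD9-A and SMARCB1 dBRD9-A (0.105 to 0.167) and between SMARCB1 DMSO and SMARCB1 dBRD9-A (0.116 to 0.227) all 3 pairs were over 0.1. Each library correlated best with its own number, and every same-numbered pair lay above every other pair. The tests without the block therefore leave out a grouping that these values show. With the block, peaks per locus for SMARCB1 against GFP gave an exact permutation p = 0.0312 at every locus but CCN1. The library identifiers in the labels also run consecutively within a number, but the labels do not say what a number marks. Beyond these regions and the CCN1 peak count below, the block changed no call.

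For SMARCB1 against GFP, the CCN1 peak difference was 0.667 at equal background depth, -0.667 with no flank and 2.50 with an exact permutation p = 0.125 under the replicate block; the CCN2 difference was 0.167 with no flank. For dBRD9-A, differences turned at YAP1 (-1.0), TEAD1 (-0.167) and CCN2 (-0.333) with 100 kb flanks, at WWTR1 (0.333) with no flank, at TEAD1 (-0.667) and CCN1 (0.167) with a −log10 q of at least 5, and at TEAD1 with equal background depth (-0.667) and equal shared pileup (-0.50). Leaving out 1 library gave -0.750 to 0.750 at YAP1, -1.0 to 2.50 at TEAD1, 1.5 to 3.25 at LATS2, and -0.917 to 0.0833 at CCN1 and at ANKRD1.

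Regions gained in DMSO numbered 20 at a −log10 q of at least 5, and lost ones 1 there and at 50% cover. With dBRD9-A, gained regions numbered 13 at equal background depth, and lost ones 1 there and at equal shared pileup. Between treatments, lost regions in SMARCB1 cells numbered 0 at a −log10 q of at least 5 and 2 at equal shared pileup and at 50% cover; at 50% cover 1 was gained there and 1 lost in GFP cells. With 1 library left out, lost regions numbered 0 to 1 in either comparison of SMARCB1 with GFP; between treatments, GFP cells had 0 to 1 gained and 0 to 2 lost, and SMARCB1 cells 0 to 4 gained and 1 to 4 lost.

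Scaled by background pileup, 1 shared region rose and 5 fell with SMARCB1, the latter being the starts of CCN1 (-0.68), CCN2 (-0.48), LATS2 (-0.62) and TEAD1 (-0.78), and TEAD1 289.8 kb past its start (-0.91). The direction also turned 3.6 kb upstream of CCN1 (-0.40), at the WWTR1 start (-0.33) and 1.1 kb into YAP1 (-0.21). With 1 library left out, the log2 difference ran from -0.16 to 0.03 at the CCN1 start and from -0.07 to 0.07 at the LATS2 start. At a −log10 q of at least 5, calls among the named regions were lost 58.2 kb into YAP1, 13.5 kb into and 18.3 kb upstream of LATS2, and 13.1 kb past the CCN2 start. Those at LATS2 were also lost at equal shared pileup. The ANKRD1 start was called at both settings. Member regions at the smallest p numbered 26 in the main setting, 18 at a −log10 q of at least 5 and 22 at equal shared pileup. Over all regions these numbered 13634, 8044 and 11306. Depth was known only through the recovered pileups.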
